A study of Drosophila melanogaster with 4 samples.

Results

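Cytosolic large-subunit ribosomal proteins are the proteins that, with ribosomal RNA, build the larger subunit of the ribosome, where peptide bonds are made. The set was taken as every listed transcript of a gene whose symbol starts with RpL. It held 12 transcripts of 9 genes, out of 1761 listed transcripts in all, and 45 of the 54 annotated RpL genes had no listed transcript. RNA had been sequenced from the intestines of female *Drosophila melanogaster* aged 3 to 5 days, 30 guts to a sample, from flies reared at 25 °C. The groups were 2 samples of a kdm5 mutant, with the alleles k6801 and 10424, and 2 samples of w1118, the white-eyed strain that served as wild type. The sources used here give neither the genetic background of the mutant nor the position of its alleles. The labels do not say whether samples of 1 genotype came from separate crosses, so the spread behind each p-value may be a technical one. The study's question was how gene expression in the gut differs without normal kdm5.

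Cells make most of these proteins in matched amounts, since they join into 1 particle, and a gut renews its cells and secretes digestive enzymes through translation. Many fly genes of this family are Minute genes, whose loss of a single copy slows growth and thins the bristles. Kdm5, also called lid, encodes a demethylase of lysine 4 on histone H3. In flies lid has been tied to growth through the transcription factor Myc, which drives genes of ribosome assembly.

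The deposited values were in TPM, a transcript's reads per unit of its length, scaled to a fixed total in each library, and depth is unknown. Every listed transcript carried a deposited p under 0.05, so the table had been selected on the comparison of mutant and w1118 itself. No level was analysed here for a transcript outside it. Rose and fell are used below only where limma on log2(TPM + 1) gave an adjusted p under 0.05 with all 35694 annotated transcripts counted as tests. That rule called 540 listed transcripts, or 30.7% of the list, with 387 (22%) higher and 153 (8.69%) lower. The fit saw only listed transcripts, selected on this comparison, so the spread it used may be too small. Counting more tests does not correct for that. The Kdm5 transcript FBtr0307071 stood at 0.0768 and 0.0361 TPM in mutant replicates 1 and 2, and at 1.43 and 0.639 TPM in w1118 replicates 1 and 2. Both mutant libraries thus lay below both w1118 libraries, at a log2 change of -0.92 ± 0.26 (SE, n = 2 per group, limma adjusted p = 0.109). This transcript too was listed through its p on this comparison, and 94.8% of the list set the genotypes apart in this way. The low values therefore do not check the labels.

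Of the 12 RpL transcripts, 11 were higher in the mutant and 1, of RpL21, was lower, where 58.8% of the list had both mutant libraries above both w1118 libraries. Transcripts of RpLP1 (RpLP1-RB) and RpL36 (RpL36-RE and RpL36-RD) rose, 3 in all, and none of the RpL transcripts fell. That is 3 of 12 set against the 22% of the whole list that rose, so the share called was near the background. Adjusted over the list alone, limma called all 12, as it did 77.1% of the list. Among the other 9 the limma adjusted p ran from 0.0649 (RpL24-RB) to 0.449 (RpL13-RC). In all 12, both mutant libraries lay on the same side of both w1118 libraries, as they did in 94.8% of the list. The median log2 change was 0.99 over the 12 and 0.86 over all listed transcripts. Over those higher in the mutant it was 1.05 for the 11 RpL transcripts and 1.15 for all 1036.

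**Figure D1:**
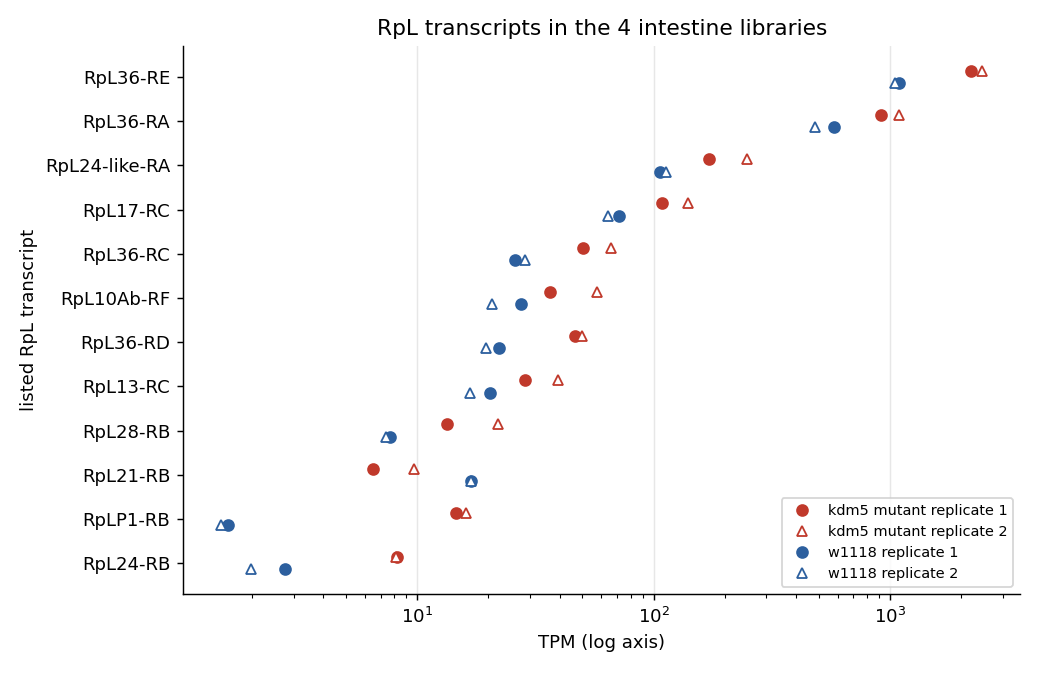
TPM (log axis) of each listed RpL transcript in the 4 libraries, with red for the kdm5 mutant, blue for w1118, filled circles for replicate 1 and open triangles for replicate 2. The red points lie right of the blue points in 11 transcripts and left of them in RpL21-RB.

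The count of 3 was not kept when any 1 library was left out, and the count over the whole list fell too. Such a fit leaves 1 library in a group, so its spread cannot be measured and only the change is given. The log2 change of RpLP1-RB then lay between 2.63 and 2.76, with RpL36-RE between 1.04 and 1.2 and RpL36-RD between 1.09 and 1.26. No RpL transcript changed direction. The listed transcripts held 15.6% and 15.3% of the assumed total of 1000000 TPM in the mutant libraries and 23.9% and 23.5% in w1118. Scaling to the TPM outside the list lowered the median log2 change of all listed transcripts by 0.13 and left 515 of them called. Of the RpL transcripts it left 1 called, RpLP1-RB, with 11 still higher and 1 lower.

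RpLP1 encodes the acidic protein P1 of the ribosomal stalk, which with P2 and P0 recruits the GTPases of translation. Its listed transcript RpLP1-RB (FBtr0331932, chromosome arm 2L, 419952 to 420864, plus strand, BDGP6.54) stood at 14.6 and 16.1 TPM in mutant replicates 1 and 2. In w1118 replicates 1 and 2 it stood at 1.58 and 1.48 TPM. The mutant values lay far above both w1118 values, and the samples within each genotype lay close together. Mean TPM rose 10-fold, from 1.53 ± 0.0721 to 15.4 ± 1.03 (SD, n = 2), and by 9.57- to 10.5-fold with any 1 library removed. The log2 change was 2.69 ± 0.37 (SE; limma adjusted p = 0.000224), the largest among the 12. That log2 change was 2.76 and 2.63 without mutant replicate 1 and 2, and 2.72 and 2.66 without w1118 replicate 1 and 2.

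RpL10Ab encodes the protein of the L1 stalk, the mobile arm beside the exit site for used tRNA. Its listed transcript RpL10Ab-RF (FBtr0345073, 3L, 11822851 to 11824211, plus strand) stood at 36.3 and 57.5 TPM in the mutant and 27.5 and 20.6 TPM in w1118. The mutant libraries lay above those of w1118, but mutant replicate 1 was closer to w1118 replicate 1 than to mutant replicate 2. The log2 change was 0.91 ± 0.31 (SE; limma adjusted p = 0.299).

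RpL36 was the only one of these genes with several listed transcripts, 4 of its 5, and it held the most abundant RpL transcript of the table. It encodes a small structural protein of the large subunit and is a Minute gene of the X chromosome. RpL36-RE (FBtr0345321, X, 628338 to 628894, minus strand) stood at 2206 and 2462 TPM in mutant replicates 1 and 2 and at 1097 and 1045 TPM in w1118 replicates 1 and 2. Mean TPM rose 2.18-fold (2.06- to 2.3-fold with any 1 library removed), with a log2 change of 1.12 ± 0.24 (SE; limma adjusted p = 0.018). The groups lay well apart. Scaled to the TPM outside the list, RpL36-RE no longer passed (limma adjusted p = 0.0578).

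RpL36-RD (FBtr0070157, X, 628349 to 629416) also rose, from 22.1 and 19.5 TPM in w1118 to 46.3 and 49.9 TPM in the mutant. Its log2 change was 1.17 ± 0.28 (SE; limma adjusted p = 0.0419), and 0.104 was the adjusted p after the same scaling. Here too the samples of each genotype lay close together and the groups far apart. RpL36-RC (FBtr0070158, X, 628349 to 629416) stood at 50.2 and 65.7 TPM in the mutant and 25.9 and 28.6 TPM in w1118 (limma adjusted p = 0.0818). RpL36-RA (FBtr0070155, X, 628349 to 629483) stood at 916 and 1091 TPM in the mutant and 579 and 480 TPM in w1118 (limma adjusted p = 0.0735). With the replicate number as a block, the adjusted p of RpL36-RA was 0.0452 and that of RpL36-RD 0.0922.

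The 4 RpL36 transcripts share the whole coding region, of 345 bases. RpL36-RA, RpL36-RC and RpL36-RD differ in their first, non-coding exon, and RpL36-RE lacks that exon and begins inside the intron that follows it. RpL36-RE made up 68.5% and 67.1% of the listed RpL36 TPM in the mutant libraries and 63.6% and 66.4% in w1118, so its share differed little between the genotypes. The sum of the 4 was 3219 and 3669 TPM in the mutant and 1724 and 1573 TPM in w1118. Fitted as 1 gene, RpL36 had a log2 change of 1.06 ± 0.24 (SE; limma adjusted p = 0.0297 over 18358 annotated genes). With a constant prior variance in limma, neither RpL36-RE nor RpL36-RD passed (adjusted p = 0.148 and 0.121). Reads shared by these transcripts cannot be assigned to one of them, so the 4 are not independent results.

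**Figure D2:**
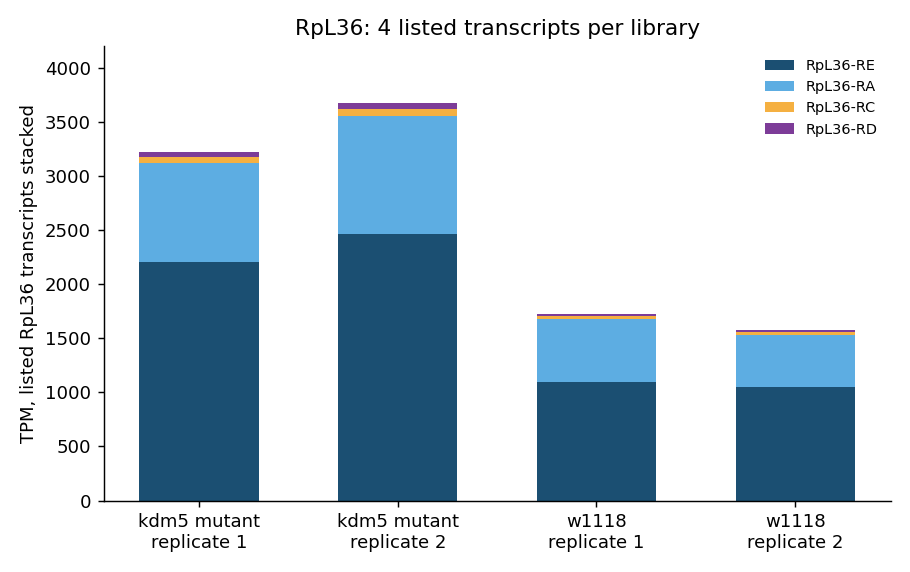
TPM of the 4 listed RpL36 transcripts, stacked, in each library. The stacks reach 3219 and 3669 TPM in the mutant and 1724 and 1573 TPM in w1118, with RpL36-RE the largest block in every library.

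RpL17 encodes a protein that lines the tunnel through which the new peptide leaves. Its listed transcript RpL17-RC (FBtr0070981, X, 6741537 to 6744238, minus strand) stood at 109 and 140 TPM in the mutant and 71.3 and 64 TPM in w1118. The groups did not overlap, and mutant replicate 2 was the highest library. The log2 change was 0.86 ± 0.26 (SE; limma adjusted p = 0.155). In the authors' deposited table its p was 0.0494, the nearest to the limit of 0.05 among the RpL transcripts, followed by RpL36-RA at 0.0482. The smallest deposited p was that of RpLP1-RB (0.00109), followed by RpL21-RB (0.0047) and RpL24-RB (0.00527). Those of RpL36-RD and RpL36-RE, which limma called, were larger, at 0.0157 and 0.0252. The authors' order thus differed from that of limma.

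RpL24 encodes a protein that reaches across to the small subunit. RpL24-RB (FBtr0342637, 2L, 13393687 to 13395092, minus strand) stood at 8.17 and 8.09 TPM in the mutant and 2.74 and 1.98 TPM in w1118. The mutant libraries were nearly equal, and w1118 replicate 1 stood above replicate 2 by a factor of 1.39. The 3.44-fold ratio of means (2.96- to 4.11-fold with any 1 library removed) was second in size to that of RpLP1-RB. Its log2 change of 1.45 ± 0.37 (SE) had a limma adjusted p of 0.0649 over all annotated transcripts. In the fit and adjustment over genes the limma adjusted p was 0.0491. That fit held the same RpL24-RB values, as no other RpL24 transcript was listed, so it is not a result for the whole gene.

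RpL28 encodes a large-subunit protein that budding yeast lacks. RpL28-RB (FBtr0073095, 3L, 3220911 to 3222958, minus strand) stood at 13.3 and 21.9 TPM in the mutant and 7.68 and 7.35 TPM in w1118. The w1118 libraries were alike, and the mutant libraries differed from each other by a factor of 1.64, the widest gap between mutant replicates among the 12. The log2 change was 1.09 ± 0.36 (SE; limma adjusted p = 0.272).

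RpL13 encodes another structural protein of the large subunit. RpL13-RC (FBtr0310482, 2L, 9967330 to 9968645, plus strand) stood at 28.7 and 39.5 TPM in the mutant and 20.4 and 16.6 TPM in w1118. All mutant values lay above those of w1118, with the smallest log2 change of the 11 higher transcripts, 0.84 ± 0.31 (SE; limma adjusted p = 0.449).

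RpL21, also a structural protein of the large subunit, gave the 1 transcript that was lower. RpL21-RB (FBtr0331295, 2L, 22247111 to 22247833, minus strand) stood at 6.52 and 9.67 TPM in the mutant and 16.8 TPM in both w1118 libraries. Both mutant values lay well below w1118. The mean was 2.08-fold lower in the mutant, with a log2 change of -0.99 ± 0.35 (SE; limma adjusted p = 0.381, and 0.208 after scaling to the TPM outside the list).

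RpL24-like shares the symbol prefix but is not known as a part of the finished ribosome. Its yeast relative Rlp24 is an assembly factor that holds the place of the L24 protein on the immature large subunit in the nucleus. RpL24-like-RA (FBtr0082403, 3R, 11430740 to 11431582, minus strand), the only annotated transcript of its gene, stood at 172 and 249 TPM in the mutant and 106 and 113 TPM in w1118. The groups did not overlap, and the log2 change was 0.91 ± 0.26 (SE; limma adjusted p = 0.109). For this gene the listed value is that of the whole gene.

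For the other genes the listed transcripts were part of the gene's output. The 9 genes have 30 annotated transcripts, of which 18 were not listed. In 7 genes 1 of several transcripts was listed, and in 6 of these 7 it was the longest one. In 5 of the 7 it ran past the 3′ end of every other annotated transcript of its gene. RpLP1-RB differs from RpLP1-RA in a 3′ end that lies 167 bases further on. The extension was 436 bases in RpL24-RB, 203 in RpL28-RB, 154 in RpL13-RC and 35 in RpL21-RB. RpL13-RC also keeps the first intron, of 258 bases, as exon.

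RpL10Ab-RF was the 1 listed transcript without the full coding region. Its second exon runs on into the intron and adds 210 bases, and its coding length is 171 bases against 651 in RpL10Ab-RA. In RpL17-RC the difference lies in the non-coding first exon. The level of each whole gene other than RpL24-like therefore cannot be read from these values, and a change in the choice of transcript cannot be told apart from a change in the whole gene.

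**Figure D3:**
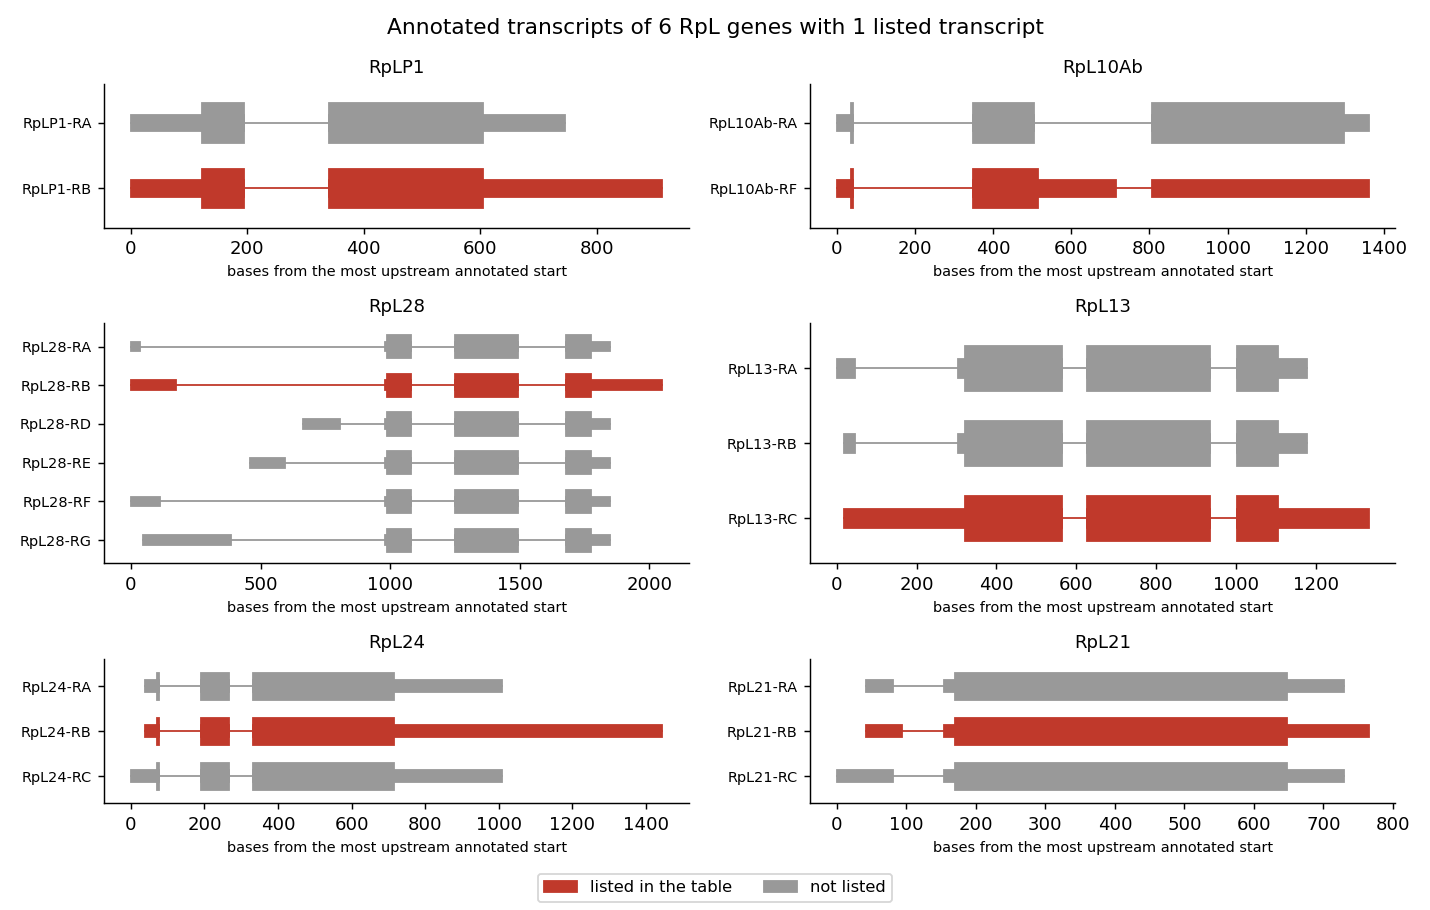
Annotated transcripts of 6 genes with 1 listed transcript, drawn from the most upstream annotated start (x axis, bases). Tall boxes are coding exons, low boxes untranslated exons, lines introns, red the listed transcript and grey those not listed. The red transcripts of RpLP1, RpL28, RpL13, RpL24 and RpL21 reach past the grey ones on the right.

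Among listed RpL transcripts of genes with transcripts of unequal length, 7 of 11 (63.6%) were the longest of their gene, against 28.5% over the whole list and 32.8% over all annotated RpL transcripts. The most distal 3′ end was reached by 6 of 9 (66.7%), against 42.7% of the list and 34.5% of annotated RpL transcripts. In the listed small-subunit transcripts the shares were 2 of 9 (22.2%) and 2 of 8 (25%). These shares are descriptions of few transcripts and were not tested. Exons of RpL24-RB overlap those of CG7099 on the opposite strand over 273 bases. The strand setting of the sequencing is not given, so reads of the pair cannot be told apart there. CG7099 had no listed transcript. The overlaps of RpL24-like-RA, RpL28-RB and RpL10Ab-RF with a gene on the opposite strand were 23, 15 and 5 bases.

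Of the 9 genes, 4 (RpLP1, RpL13, RpL24 and RpL21) lie on 2L, the arm that carries Kdm5. RpL13 is nearest to Kdm5, at 3968 kb, and RpL21 farthest, at 16248 kb. Transcripts of 2L made up 4 of the 12 (33.3%) and 17.9% of the list. RpL36 and RpL17 lie on the X, which carried 5 of the 12 transcripts and 274 of the 1761 in the list. Other differences between the chromosomes of the strains and the loss of kdm5 cannot be told apart.

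Mutant replicate 2 stood above mutant replicate 1 in 11 of the 12 RpL transcripts, by a median factor of 1.3. RpL24-RB was the exception. In the whole list the same held for 81.7% of transcripts, with a median factor of 1.37. The 2 transcripts with the highest log2 change, RpLP1-RB and RpL24-RB, had mutant ratios of 1.1 and 0.99. Summed over the 12, the libraries held 3607 and 4211 TPM in the mutant and 1978 and 1815 TPM in w1118, and most of each sum was RpL36.

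**Figure D4:**
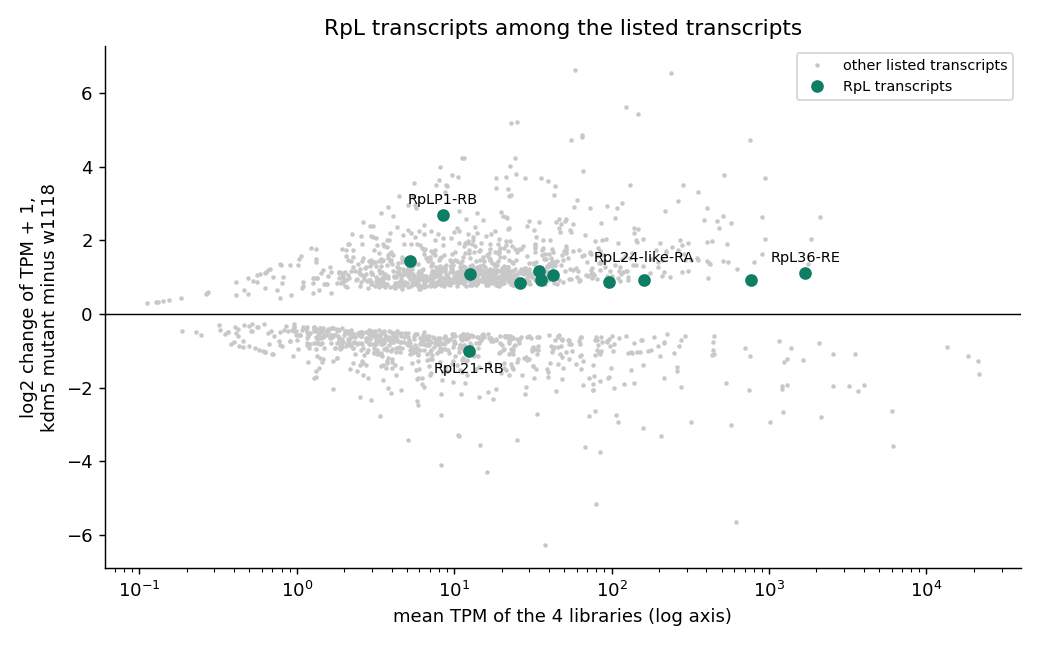
Log2 change of TPM + 1, kdm5 mutant minus w1118, against the mean TPM of the 4 libraries (log axis), with RpL transcripts in green and all other listed transcripts in grey. Apart from RpLP1-RB at 2.69 and RpL21-RB at -0.99, the green points lie between 0.84 and 1.45.

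The proteins of the small subunit, which reads the mRNA, were set beside those of the large one. Of 39 genes 8 were listed, with 10 transcripts. All 10 were higher in the mutant, against 58.8% of the list, and 3 rose, against 22% of the list. RpS15Aa-RA (FBtr0073793) stood at 9.64 and 23 TPM in the mutant, and in w1118 it was listed at 0 and at 0.00109 TPM (limma adjusted p = 6.3e-06). The other listed transcript of that gene, RpS15Aa-RC (FBtr0073792), was abundant in both genotypes, at 125 and 170 TPM in the mutant and 82.1 and 74.2 TPM in w1118 (limma adjusted p = 0.128), and the division of reads between them is uncertain. The sta transcript (FBtr0339593), which encodes the protein SA of the small subunit, rose from 8.35 and 6.99 TPM in w1118 to 17.9 and 39.7 TPM in the mutant (limma adjusted p = 0.022). The RpS15Ab transcript (FBtr0088226) rose by 1.21 on the log2 scale (limma adjusted p = 0.0444). RpS15Aa and RpS15Ab encode near-identical proteins and may share reads. The median log2 change was 1.11 over these 10 and 0.99 over the 12 of the large subunit, and no difference between the subunits was tested.

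**Figure D5:**
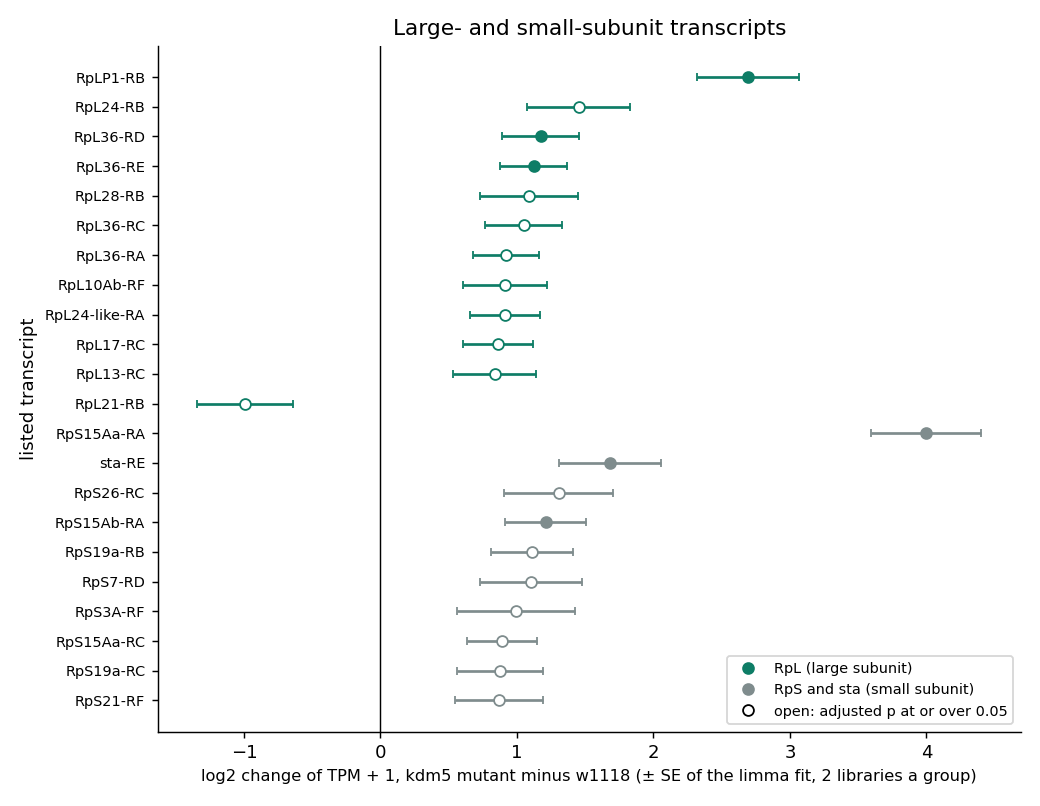
Log2 change of TPM + 1, kdm5 mutant minus w1118, with the SE of the limma fit (2 libraries per group), for RpL transcripts (green) and small-subunit transcripts (grey). Filled points had an adjusted p under 0.05, 3 in each group, and RpL21-RB at -0.99 is the one point left of 0.

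Factors that work with the ribosome went both ways. Of 44 translation factor genes in the annotation 5 were listed, with 2 transcripts higher and 3 lower, against 58.8% and 41.2% of the list. Of these 5, 1 rose and 2 fell, where 22% of the list rose and 8.69% fell. The 5 were not tested as a set. The eIF3f1 transcript, for a subunit of the initiation factor that binds the small subunit, rose from 103 and 117 TPM in w1118 to 218 and 262 TPM in the mutant (limma adjusted p = 0.0196). A transcript of eIF4A (FBtr0079175), the helicase of the cap complex, fell from 53.7 and 45.7 TPM to 9.91 and 19.9 TPM (limma adjusted p = 0.00546). It lies on 2L, 3.88 kb from the Kdm5 transcript, so an effect local to the mutated locus cannot be told apart from another. A transcript of eIF4E1 (FBtr0076493), the cap-binding protein, fell from 9.23 and 10.9 TPM to 1.73 and 3.08 TPM (limma adjusted p = 0.0229). Each was 1 transcript of a gene that may have others outside the table.

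Of 49 annotated genes of ribosome biogenesis and RNA polymerase I, 8 were listed with 8 transcripts. All 8 were higher, against 58.8% of the list, and 1 rose, against 22%. That one was Rrp4, a subunit of the RNA exosome that trims ribosomal RNA, from 2.57 and 1.25 TPM in w1118 to 7.68 and 11.6 TPM in the mutant (limma adjusted p = 0.0134). In the list of growth control and ribosomal stress, 2 of 24 annotated genes were listed. Their 3 transcripts were lower, as were 41.2% of the whole list, and limma called none, against 30.7%. The smallest adjusted p there was 0.635, for a transcript of the kinase Pdk1 (FBtr0333218). Of 7 annotated genes for factors at promoters of ribosomal protein genes, 2 were listed. M1BP, which binds a motif found at many of these promoters, stood at 22 and 25.9 TPM in the mutant and 12.2 and 12.1 TPM in w1118 (limma adjusted p = 0.335).

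Of the markers of cell types, 4 listed transcripts passed the test in the same libraries, those of Tsf1, srp, Oatp58Db and ZnT35C, and all 4 rose. They were 1 of 1 listed fat body transcript, 1 of 2 for haemocytes and 2 of 5 for Malpighian tubules. None passed among 1 stem cell, 3 enterocyte, 8 enteroendocrine and 2 visceral muscle transcripts. In the whole list 30.7% were called and 22% rose. None of the 14 ovary markers in the annotation was listed. Of 8 Malpighian tubule markers 4 were listed, with 3 transcripts higher and 2 lower and a summed level of 231 and 251 TPM in the mutant and 229 and 203 TPM in w1118. Oatp58Db and ZnT35C rose (limma adjusted p = 0.00109 and 0.0238). Both salt transcripts were lower, the more abundant with 94.9 and 101 TPM in mutant libraries and 165 and 135 TPM in w1118 (limma adjusted p = 0.694). Tsf1, 1 of 10 fat body markers and the only one listed, rose from 9.24 and 10.1 to 29.8 and 38.2 TPM. Of 8 haemocyte markers 2 were listed, and they went opposite ways. A transcript of srp rose to 1.03 and 0.925 TPM (limma adjusted p = 0.039) from 0 and 4.73e-10 TPM in w1118. No other srp transcript was listed, these levels are low, and the division of reads among srp transcripts is uncertain. Hml stood lower, at 0.169 and 0.393 against 0.957 and 0.557 TPM (limma adjusted p = 1). The pair summed to 1.2 and 1.32 TPM in the mutant and 0.957 and 0.557 TPM in w1118.

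The other marker lists had no transcript called by limma. All 8 listed transcripts of 5 of the 10 enteroendocrine markers were lower, where 41.2% of the whole list was lower. They summed to 95.8 and 98.2 TPM in the mutant and 189 and 175 TPM in w1118, and Orcokinin had the smallest adjusted p (0.115). Of 8 enterocyte markers 3 were listed, 1 higher and 2 lower, summing to 32.8 and 43.2 TPM in the mutant and 63 and 52.4 TPM in w1118. Nearly all of that sum was Myo31DF. The higher one, nub, stood at 1.16 and 2.14 against 0.502 and 0.551 TPM and had the smallest adjusted p (0.512). Of 10 visceral muscle markers 2 were listed, summing to 96.8 and 136 TPM in the mutant and 233 and 152 TPM in w1118. Act57B made up nearly all of it and was lower (limma adjusted p = 0.513). A transcript of Mhc was higher, at 0.263 and 0.822 TPM against 0 and 1.01e-08 TPM, and the division of reads among Mhc transcripts is uncertain. The stem cell marker esg, 1 of 4 in the annotation, stood at 0.48 and 0.873 against 2.02 and 1.24 TPM. The part of these differences in the RpL values was not tested, and in bulk tissue fewer cells of a type and less RNA per cell cannot be told apart.

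Outside the ribosomal proteins, the listed transcripts nearest to the median RpL profile were those of Spn55B, CG16903 and CG1105. The measure was the Euclidean distance over the 4 libraries between centred log2(TPM + 1) profiles, among the 1184 that averaged 5 TPM or more. The distances were 0.0667, 0.0671 and 0.0703. Spn55B, a serpin, stood at 239 and 323 TPM in the mutant and 138 and 131 TPM in w1118. With 4 libraries in 2 groups, many transcripts share such a profile.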

How the data were processed

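RNA sequencing of 4 intestine samples, 2 per genotype, was used as 1 deposited table. Per the file headers it holds TPM per transcript and library and a p-value per transcript, which the authors deposited; whether that p-value is adjusted is not stated. Cufflinks and DESeq are named, without a role, per the submitters' processing notes. The sources used here do not name the aligner, genome build, annotation or strandedness. The TPM total of 1000000 was assumed, and depth is unknown.

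Transcripts were matched to Ensembl release 115 (BDGP6.54), perhaps another annotation than the authors used: 1741 of 1761 matched, to 1526 genes. In R 4.3.3, limma 3.58.1 with its variance trend was fitted to log2(TPM + 1) of all listed transcripts, a scale that understates the change of low transcripts. Benjamini-Hochberg adjustment counted all 35694 annotated transcripts outside transposable elements. The gene fit summed the listed transcripts of each gene and counted 18358 genes. Folds are ratios of mean TPM. The fit was run on simulated data with equal spread, no selection on p and adjustment over the simulated transcripts alone. That run therefore does not check the calls made here. Members, lists and tests were chosen with earlier results of these data known. List sizes count genes whose symbol is in the annotation. Named were Kdm5, every RpL transcript, up to 4 called members of each list by smallest p (or the one with the smallest p), and the 3 nearest profiles with a mean of at least 5 TPM.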

Additional observations from a re-analysis of the deposited data

How the results depend on the processing

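The count of RpL transcripts called was 3, and 540 over the list. Adjusted over the listed transcripts alone, the counts were 12 and 1358 (77.1% of the list), which leaves false calls unlimited, as the list was selected on p. Scaling to the TPM outside the list left 1 RpL transcript and 515 over the list. It moved the share of higher calls in the list from 71.7% to 64.1%. Leaving out 1 library gave 0 to 1 RpL transcripts and 0 to 366 over the list; both counts were 0 without either mutant replicate, where 1293 and 1217 transcripts had unadjusted limma p under 0.05. The library then alone in its group was assumed to vary like the other group. No label pairs the samples. With the replicate block the counts were 3 and 449; deviations of same-numbered libraries correlated at -0.188 across 1761 transcripts, and the crossed pairing, chosen after seeing the data, gave 11 and 1167. A constant prior variance called 2 RpL transcripts and 401 over the list. RpLP1-RB stayed, RpL36-RE and RpL36-RD were lost (limma adjusted p = 0.148 and 0.121) and RpL24-RB was gained (0.0412). For single RpL transcripts 117 values in the alternatives stayed on their side of the threshold, 20 passed it newly, 15 lost it and none changed direction. Most of the 20 came from adjusting over the list alone or from the crossed pairing. Outside these settings only RpL24-RB and RpL36-RA passed newly. Low transcripts are limited most by the unknown depth, and those of several-transcript genes by how reads were divided.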
